A study of Mus musculus with 28 samples.

Results

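The 34 genes described here encode proteins of the lysosome, the acidic compartment in which a cell breaks down material that it has taken up or discarded. They were taken by symbol from 54427 gene entries and comprise 6 membrane proteins, 1 channel and 3 transport proteins (4 genes), 8 glycosidases, 6 lipid or protein hydrolases and activators, 3 transcription factors and 7 subunits of the proton pump. Primary microglia, the resident macrophages of the brain, came from mice of 2 genotypes. One is APOE3, labelled WT, and the other is APOE3S/S, labelled Christchurch, an APOE3 with the Christchurch substitution. Cells of each genotype were left untreated (labelled Control) or received tau or amyloid. For APOE3 there were 6 libraries of untreated cells, 6 with tau and 3 with amyloid. For APOE3S/S there were 4 of untreated cells, 6 with tau and 3 with amyloid. The sources used here give no age, dose, duration or form of tau and amyloid.

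Lysosomal enzymes are made in the secretory pathway and become active once the vacuolar proton pump has acidified the lumen. Many of their genes share control by TFEB, TFE3 and MITF, related transcription factors that move to the nucleus when nutrient signalling at the lysosome falls or when calcium leaves it through the channel MCOLN1. Microglia carry protein aggregates such as amyloid and tau to lysosomes, and inherited loss of several of the enzymes leads to storage disease with inflammation of the brain.

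The RNA was read by 3′ tag sequencing, which gives about 1 tag per transcript whatever its length, and levels are given as CPM, the count of a gene scaled to a library total of 1000000 counts. The 28 libraries held 14464761 to 27220695 counts. Library titles follow 2 naming patterns, called here the SAN titles (17 libraries, all treatments) and the second title series (11 libraries, untreated and tau only). Untreated APOE3 libraries 1 to 3, untreated APOE3S/S libraries 1 and 2, all amyloid libraries and tau libraries 4 to 6 of either genotype have SAN titles. All 10 microglial markers examined averaged at least 1 CPM over the libraries and summed to between 7281 and 12124 CPM, while 8 neuronal markers summed to at most 4.44 CPM. The microglial markers were uneven, with medians of 2705 CPM for Csf1r, 2125 CPM for C1qa and 1524 CPM for C1qb. Medians were lower for Cx3cr1 (76.6 CPM), Fcrls (50.8 CPM), P2ry12 (21.3 CPM) and Tmem119 (3.14 CPM). Markers of border-associated macrophages and monocytes, cells that an isolation from brain can also hold, summed to 1090 to 3493 CPM. Among these, Pf4 had a median of 715 CPM and Mrc1 of 580 CPM, while Lyve1 and Plac8 had medians of 0 CPM. Nothing in the labels says that libraries of a group came from separate animals or cultures, so a p-value here reflects how far these libraries scatter, which may be technical. In RNA from many cells, fewer cells of a type and less RNA per cell cannot be told apart.

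All 34 genes passed the filter on low counts in every comparison. Their levels ran from Ctns, at 38.4 to 68.4 CPM and at least 606 counts in each library, to Psap, at 9620 to 17894 CPM. Together they took 3.93 ± 0.138% of the counts in untreated APOE3 libraries (SD, n = 6) and 3.88 ± 0.338% in untreated APOE3S/S libraries (SD, n = 4). Psap, the precursor of the saposins, small activator proteins that help hydrolases reach membrane lipids, alone held 15703 ± 819 CPM in untreated APOE3 libraries (SD, n = 6).

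Because TFEB and its relatives bind the E-box CACGTG, promoters were searched for TCACGTG on either strand, a heptamer that contains this E-box, in the 250 bases before and 50 bases after each start given by RefSeq on GRCm38.p6. The table held promoters for 29 of the 34 genes. TCACGTG was found in 7 of these 29 (24.1%) and in 1160 of the 27025 genes with a promoter (4.29%), and the core CACGTG in the same number of the 29 and in 8.09% of all. The 7 were Lamp1, Mcoln1, Gla, Glb1, Gaa, Atp6v1a and Atp6v0d1. A longer motif that contains the heptamer was also searched, and was found in 0 of the 29 and in 100 of the 27025 genes (0.37%). At that frequency 29 genes are too few to show a lack of it. Unlike the 29, the 27025 genes were not limited to those that passed the filter on low counts, so these shares do not compare expressed genes alone. A match describes the letters in the window and shows no binding. The windows below were chosen because Lamp1 held 4 copies, Mcoln1 and Gla held 2 each, and Glb1 was the gene of this set that fell with tau, as given further on. They are read 5′ to 3′ on the strand of the gene, with every copy of the heptamer in capitals, at chr8:13159082-13159160 (plus strand) for Lamp1, chr8:3500430-3500497 (plus) for Mcoln1, chrX:134601176-134601250 (minus) for Gla and chr9:114401012-114401052 (plus) for Glb1.
Lamp1: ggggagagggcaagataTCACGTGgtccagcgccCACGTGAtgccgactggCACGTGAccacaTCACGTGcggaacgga
Mcoln1: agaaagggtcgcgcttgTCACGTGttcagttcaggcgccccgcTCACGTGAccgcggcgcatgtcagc
Gla: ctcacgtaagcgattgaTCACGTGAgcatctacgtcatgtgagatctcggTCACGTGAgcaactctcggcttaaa
Glb1: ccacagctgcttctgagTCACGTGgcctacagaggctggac
In Lamp1 the core copies began 61, 45, 28 and 15 bases before the start, in Mcoln1 71 and 45, in Gla 227 and 194, and in Glb1 48 bases before it.

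The first comparison asks how the lysosomal genes respond to tau in APOE3 microglia. With tau 11 of the 34 genes fell and none rose, where 14.8% of all 13905 genes tested were called in either direction, 5.87% lower and 8.98% higher. The calls rest on edgeR's quasi-likelihood test with a term for title series, and a gene was called at a Benjamini-Hochberg adjusted p under 0.05 over all genes tested. The 11 were Atp6v0d2, Hexa, Lipa, Atp6v1b2, Tfeb, Psap, Cd68, Fuca1, Glb1, Gusb and Man2b1. The median log2 fold change of the 34 was -0.21, against -0.02 over all genes tested, and 29 of the 34 lay below 0. By role the count was 5 of 8 glycosidases, 2 of 6 lipid and protein hydrolases, 1 of 6 membrane proteins, 2 of 7 pump subunits, 1 of 3 transcription factors and none of the 4 channel and transport proteins. Of the 7 genes with the heptamer 1 was called (Glb1), with a median of -0.22, and of the 22 promoters without it 8 were called, with a median of -0.20.

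**Figure D1:**
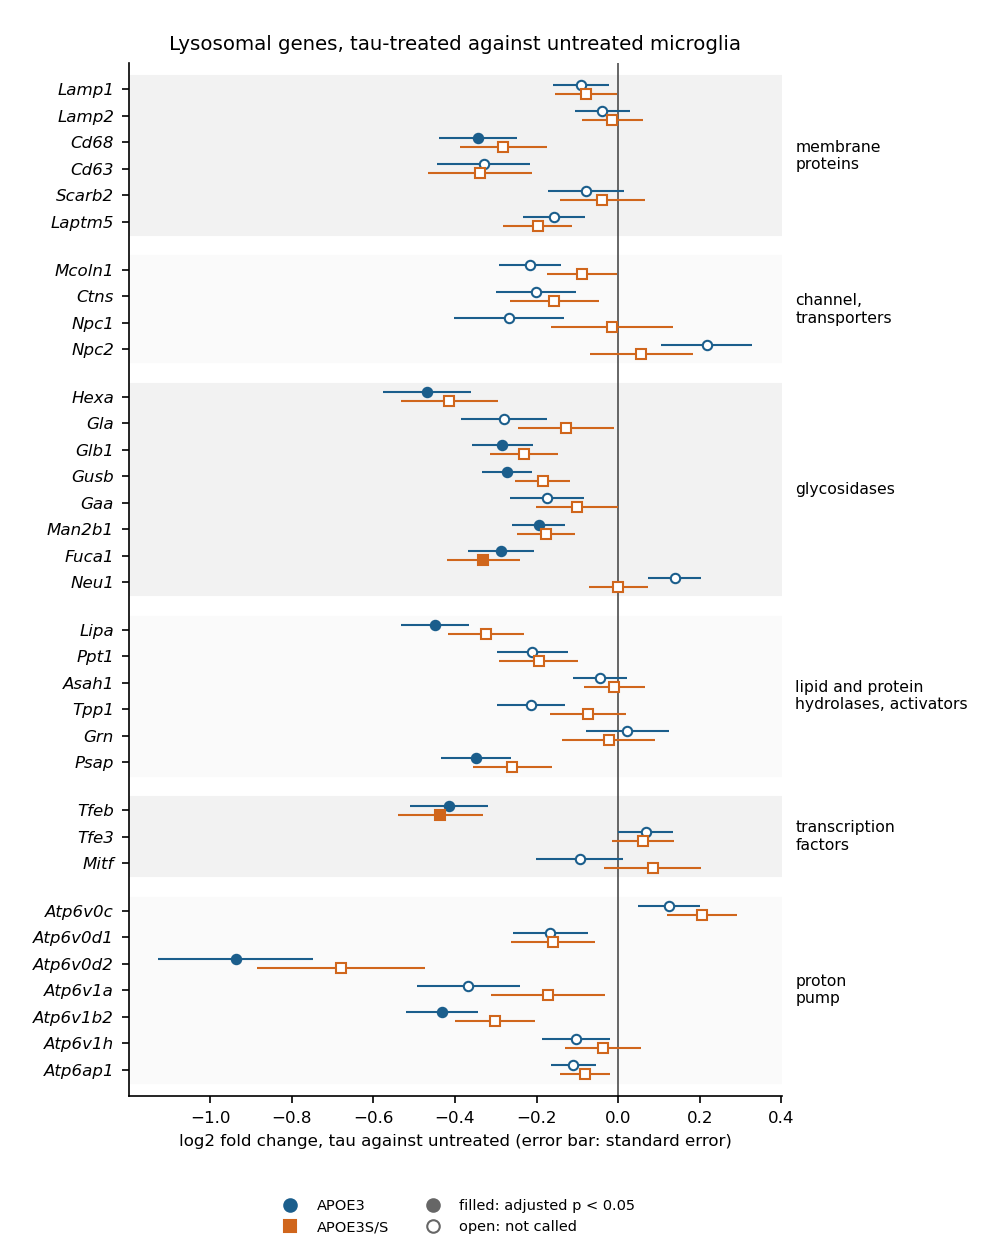
Log2 fold change of each of the 34 genes with tau (x axis, error bar: standard error), by role, in APOE3 (blue circles) and APOE3S/S microglia (orange squares). Filled symbols mark an adjusted p under 0.05: 11 genes in APOE3 and 2 in APOE3S/S, all to the left of 0, with Atp6v0d2 furthest left in both genotypes.

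Among the membrane proteins, Cd68 (chr11:69664213-69666153, minus strand, GRCm38), a heavily glycosylated protein of macrophage endosomes and lysosomes, fell. Untreated APOE3 libraries held 1054, 892 and 943 CPM (SAN titles) and 955, 765 and 818 CPM (second title series). With tau the values were 614, 664 and 585 CPM (SAN titles) and 756, 741 and 803 CPM (second title series). All 3 tau libraries with SAN titles lay below all untreated libraries, while the tau and untreated values of the second title series overlapped. The log2 fold change was -0.34 ± 0.10 (SE, adjusted p = 0.0170), and the call was lost when untreated library 1 was left out.

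Cd63, a tetraspanin of late endosomes and lysosomes, did not pass the test. It stood at 1346, 990 and 989 CPM untreated and 716, 726 and 801 CPM with tau under SAN titles. In the second title series it stood at 1093, 1198 and 1391 CPM untreated and 1072, 1111 and 1114 CPM with tau. The groups were apart under SAN titles and overlapped in the second title series, with a log2 fold change of -0.33 ± 0.11 (adjusted p = 0.0558). Lamp1, a main glycoprotein of the lysosomal membrane, differed little in size. Its untreated values were 3050, 2987 and 2989 CPM and its tau values 2567, 2658 and 2588 CPM under SAN titles, against 2781, 2895 and 2940 CPM untreated and 2902, 2668 and 2727 CPM with tau in the second title series. The groups were apart under SAN titles and overlapped in the second title series, and the log2 fold change was -0.09 ± 0.07 (adjusted p = 0.427). Lamp2, its paralog that also serves chaperone-mediated autophagy, had -0.04 ± 0.07, Scarb2, the receptor that delivers glucocerebrosidase, -0.08 ± 0.09, and Laptm5, a lysosomal protein of blood-lineage cells, -0.16 ± 0.08, none of them called.

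None of the channel and transport genes was called. Npc2, a soluble carrier that hands cholesterol to the membrane protein NPC1, had the highest log2 fold change of the 34 genes. Its untreated values were 1421, 1149 and 1208 CPM (SAN titles) and 1279, 1334 and 1386 CPM (second title series), and its tau values were 1383, 1445 and 1378 CPM and 1708, 1363 and 1523 CPM. The groups overlapped in both title series, and the log2 fold change was 0.22 ± 0.11 (adjusted p = 0.217). Npc1 had -0.27 ± 0.13 (adjusted p = 0.200), Mcoln1 -0.22 ± 0.08 (adjusted p = 0.0620) and Ctns, the cystine exporter, -0.20 ± 0.10 (adjusted p = 0.184).

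The glycosidases, which remove sugars from glycoproteins and glycolipids one residue at a time, held the most calls. Gusb (chr5:129989011-130003049, minus strand), beta-glucuronidase, had the smallest p-value of the group. Untreated libraries held 730, 635 and 723 CPM (SAN titles) and 812, 784 and 797 CPM (second title series). With tau they held 530, 533 and 500 CPM and 679, 703 and 695 CPM. Within each title series every tau library lay below every untreated library, and the log2 fold change was -0.27 ± 0.06 (adjusted p = 0.00374). Hexa (chr9:59539540-59565109, plus strand), the alpha subunit of beta-hexosaminidase A, fell by 0.47 on the log2 scale (SE 0.11, adjusted p = 0.00456), from 1276 ± 121 to 908 ± 130 CPM (SD, n = 6 each). Its tau values lay below its untreated values over both title series together.

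The other called glycosidases were Fuca1, alpha-fucosidase, at -0.29 ± 0.08 (adjusted p = 0.0185), Glb1, beta-galactosidase, at -0.28 ± 0.07 (adjusted p = 0.0122), and Man2b1, alpha-mannosidase, at -0.19 ± 0.06 (adjusted p = 0.0453). Fuca1 held 306, 275 and 231 CPM (SAN titles) and 266, 266 and 282 CPM (second title series) untreated, and 202, 201 and 198 CPM and 235, 229 and 239 CPM with tau. Its tau values were the lower ones within each title series. Fuca1 lost its call without untreated library 1, and Man2b1 in 9 of the 12 fits that left out 1 APOE3 library. Gla, alpha-galactosidase A, at -0.28 ± 0.11 (adjusted p = 0.0822), and Gaa, acid alpha-glucosidase, at -0.17 ± 0.09 (adjusted p = 0.218), were not called. Neu1, the sialidase, was the glycosidase above 0, at 0.14 ± 0.07 (adjusted p = 0.167).

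Lipa (chr19:34492318-34527474, minus strand), lysosomal acid lipase, which frees cholesterol and fatty acids from lipoprotein lipids, had the smallest p-value of all 34 genes. Untreated libraries held 1662, 1778 and 1666 CPM (SAN titles) and 1393, 1340 and 1268 CPM (second title series). Tau libraries held 1157, 990 and 1048 CPM and 1018, 1152 and 1083 CPM. Every tau library was below every untreated library, and the log2 fold change was -0.45 ± 0.08 (adjusted p = 0.000928). Psap fell as well, with -0.35 ± 0.09 (adjusted p = 0.00809), from 15703 ± 819 to 12171 ± 2155 CPM (SD, n = 6 each).

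Grn, which encodes progranulin, a secreted and lysosomal protein cut into granulins, overlapped between groups in both title series. Its untreated values were 2815, 2421 and 3153 CPM and 2925, 2501 and 2530 CPM, and its tau values 2529, 2858 and 2340 CPM and 2979, 2557 and 2881 CPM, SAN titles first. The log2 fold change was 0.02 ± 0.10 (adjusted p = 0.924). Tpp1, a peptidase, at -0.21 ± 0.08 (adjusted p = 0.0895), Ppt1, a thioesterase that removes palmitate from proteins, at -0.21 ± 0.09 (adjusted p = 0.111), and Asah1, acid ceramidase, at -0.04 ± 0.07 (adjusted p = 0.726), were not called.

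Of the transcription factors, Tfeb (chr17:47737030-47792419, plus strand) fell. Untreated APOE3 libraries held 78.6, 69.2 and 57.2 CPM (SAN titles) and 68.1, 68.0 and 74.7 CPM (second title series). With tau all 6 libraries lay close together, at 48.9, 53.7 and 48.1 CPM and at 51.4, 50.7 and 50.9 CPM. No tau library reached the lowest untreated one, and the log2 fold change was -0.41 ± 0.09 (adjusted p = 0.00433). Its relatives were not called. Tfe3 stood at 129, 138 and 155 CPM (SAN titles) and 183, 150 and 156 CPM (second title series) untreated, and at 150, 155 and 151 CPM and 157, 146 and 167 CPM with tau. These values overlapped in both title series, at 0.07 ± 0.07 (adjusted p = 0.570). Mitf stood at 71.7, 83.9 and 83.9 CPM (SAN titles) and 114, 109 and 103 CPM (second title series) untreated, and at 88.3, 82.4 and 81.4 CPM and 85.7, 90.7 and 84.4 CPM with tau. Its tau values were below the untreated ones in the second title series only, and the log2 fold change over both was -0.09 ± 0.11 (adjusted p = 0.628). These are transcript levels, and the nuclear location through which the 3 factors are mainly regulated was not measured.

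The proton pump has a membrane sector, V0, that conducts protons and a cytosolic sector, V1, that hydrolyses ATP. Atp6v0d2 (chr4:19876841-19922605, minus strand), a d subunit of V0 that is known for its high level in osteoclasts and some macrophages, had the largest fall of the 34 genes. Untreated libraries held 808, 754 and 616 CPM (SAN titles) and 471, 490 and 528 CPM (second title series). Tau libraries held 239, 261 and 244 CPM and 356, 462 and 374 CPM. No tau library reached an untreated one, and the log2 fold change was -0.94 ± 0.19 (adjusted p = 0.00172), 0.522 times the untreated level. Atp6v1b2, a B subunit of V1, fell too, with -0.43 ± 0.09 (adjusted p = 0.00188). Atp6v1a, the A subunit that carries the catalytic site, was not called (-0.37 ± 0.13, adjusted p = 0.0529), nor were Atp6v0d1 (-0.17 ± 0.09), the broadly expressed d subunit, Atp6ap1 (-0.11 ± 0.06), an accessory subunit, Atp6v1h (-0.10 ± 0.08), a regulatory V1 subunit, and Atp6v0c (0.13 ± 0.08), the subunit of the proton-carrying ring.

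**Figure D2:**
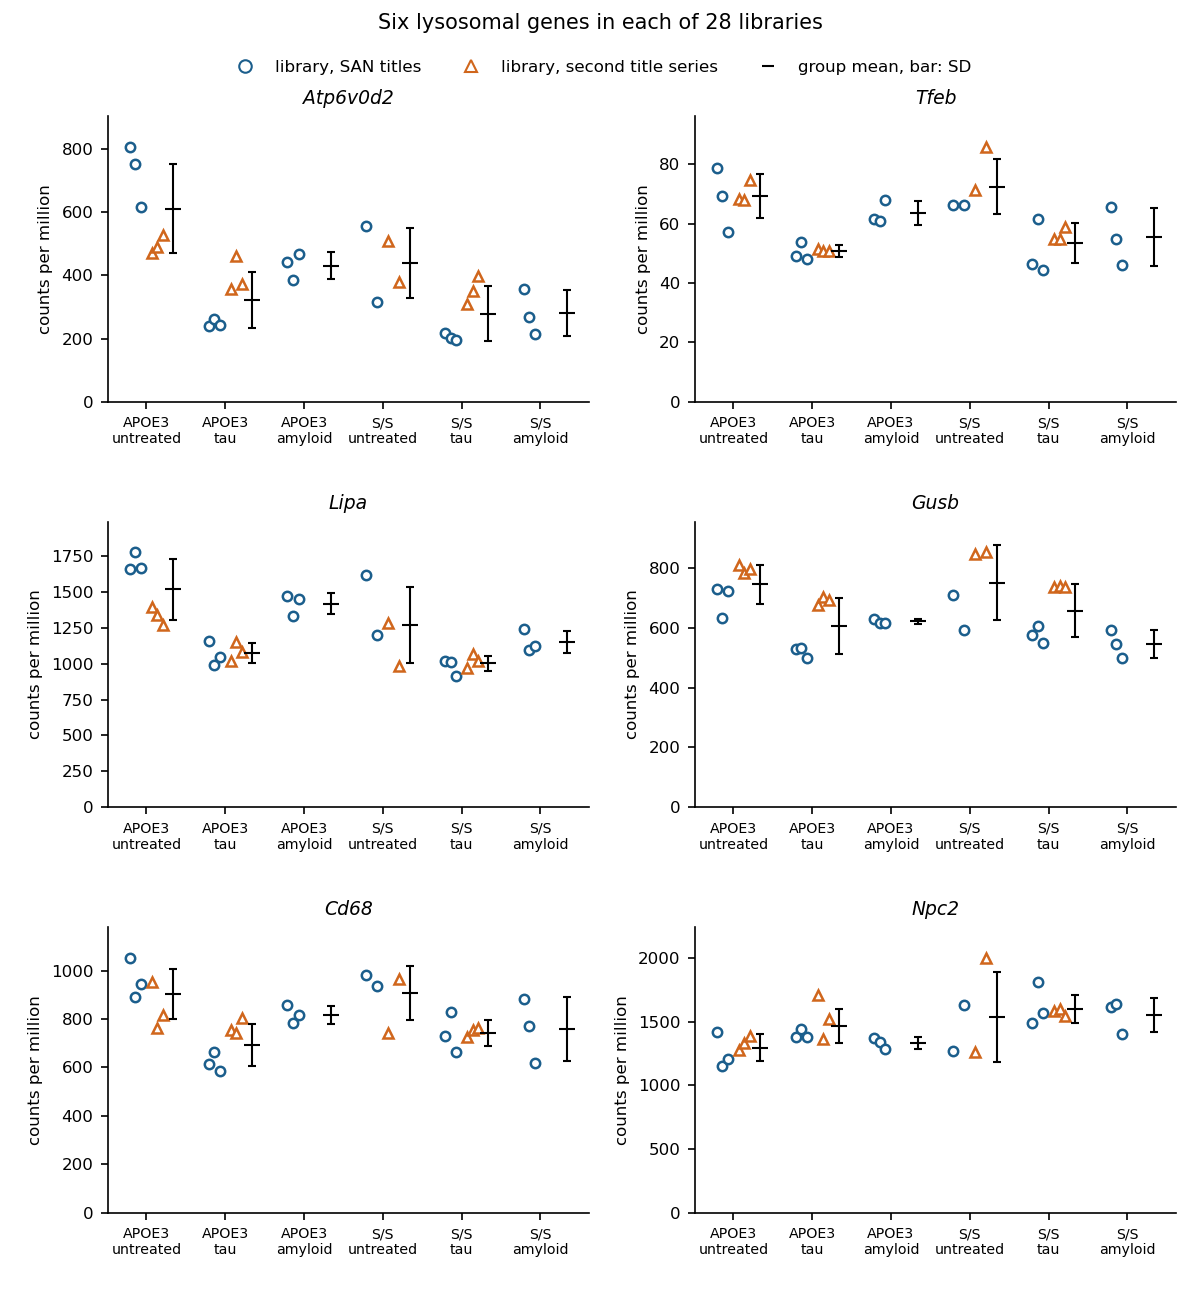
CPM in each library (y axis, from 0) of Atp6v0d2, Tfeb, Lipa, Gusb, Cd68 and Npc2 in the 6 groups, with blue circles for SAN titles, orange triangles for the second title series, and a black mark with a bar for the group mean and SD. In APOE3 all tau values of Atp6v0d2, Tfeb and Lipa lie below all untreated values, whereas those of Npc2 overlap.

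The fall with tau in APOE3 cells differed in size between the title series. Under SAN titles alone 12 of the 34 genes were called lower (7.27% of all genes tested were called lower and 19% in either direction), with a median log2 fold change of -0.34. Of these 12, 8 were among the 11 called over both series, and Atp6v1a, Gla, Mcoln1 and Ppt1 were gained. Fuca1, Man2b1 and Tfeb (adjusted p = 0.137) were not called under SAN titles alone. In the second title series alone Tfeb was the gene called lower, 1 of 34 (0.644% lower and 2.55% in either direction), with a median of -0.04. Every tau library lay below every untreated one for 27 of the 34 genes under SAN titles, where 22.9% of all genes did so, and for 11 in the second title series, where 11.2% did. For Atp6v0d2, Hexa, Lipa, Man2b1, Psap and Tfeb, 6 genes, this held across both series at once, as it did for 1.76% of all genes. The opposite, every tau library above, held for Atp6v0c under SAN titles (15.5% of all genes), for Neu1 and Scarb2 in the second title series (9.76%), and for no gene of the 34 across both (2.51%). These counts rest on CPM without the TMM scaling of the tests. Under SAN titles TMM factors were 1.01 to 1.09 untreated and 0.96 to 1.00 with tau, so unscaled CPM sets tau values relatively lower. The 27 genes include Lamp1 (-0.12 ± 0.10) and Lamp2 (-0.05 ± 0.10), neither called under SAN titles. Without a term for title series 5 genes were called: Atp6v0d2, Cd68, Hexa, Lipa and Tfeb. The share of all genes called in that fit is not given here.

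A test of the difference in tau response between the title series called 3 of the 34 genes (5.19% of all genes, 2.56% in this direction and 2.63% in the other), each with a less negative response in the second title series. For Atp6v0d2 the response was -1.47 ± 0.17 under SAN titles and -0.31 ± 0.13 in the second, a difference of 1.18 ± 0.23 (adjusted p = 0.00459). Gla stood at 280, 250 and 298 CPM untreated and 162, 157 and 177 CPM with tau under SAN titles, and at 205, 216 and 212 CPM untreated and 226, 214 and 233 CPM with tau in the second title series. Its tau values were thus below all untreated ones in the first set and overlapped with them in the other, a difference of 0.77 ± 0.13 (adjusted p = 0.00235). Scarb2 stood at 432, 466 and 493 CPM untreated and 389, 346 and 332 CPM with tau under SAN titles, and at 307, 296 and 301 CPM untreated and 335, 340 and 336 CPM with tau in the second title series. It lay below the untreated values in the first set and above them in the other, a difference of 0.49 ± 0.12 (adjusted p = 0.0176) that was lost without tau library 5 or 6. The median difference over the 34 genes was 0.28, against 0.01 over all genes, and 16 of the 34 and 2701 of all 14614 genes had an unadjusted p under 0.05. For Tfeb the responses were -0.36 ± 0.15 and -0.45 ± 0.10, and the tested difference was -0.07 ± 0.19. The response in each title series comes from a fit of its own and the difference from 1 fit over both, so the values do not subtract exactly. In APOE3S/S cells edgeR called 0 of the 34 genes in this test (0.903% of all genes, 0.39% less negative and 0.513% more negative in the second title series), and 4 of the 34 and 2480 of all genes had an unadjusted p under 0.05. DESeq2 called 1, Scarb2, with no share over all genes given.

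**Figure D3:**
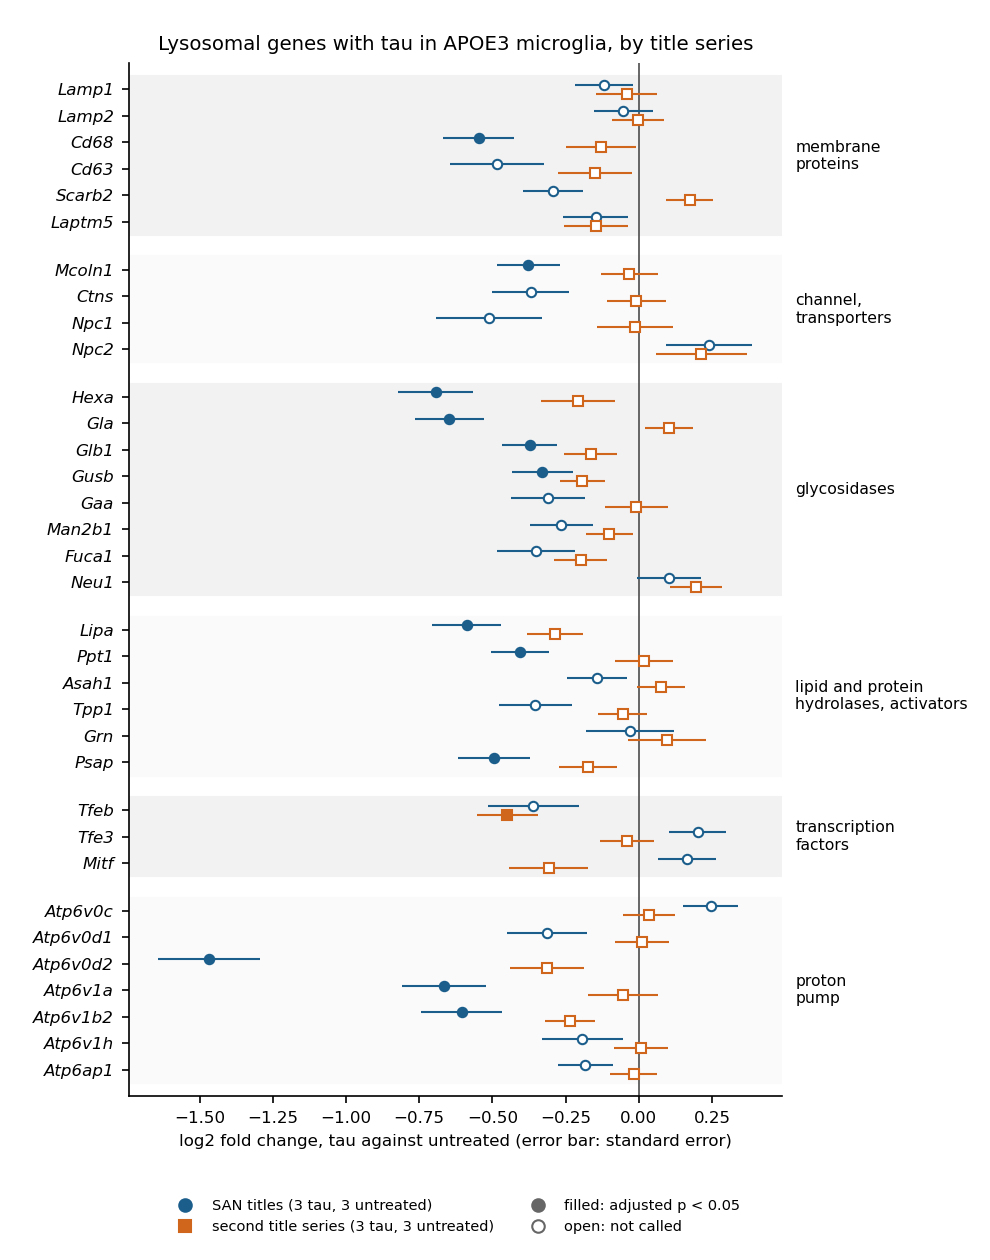
Log2 fold change with tau in APOE3 microglia (x axis, error bar: standard error) of each gene, fitted in the libraries with SAN titles alone (blue circles) and in the second title series alone (orange squares), 3 tau and 3 untreated libraries each. Filled symbols mark an adjusted p under 0.05, 12 genes in the first and 1 (Tfeb) in the second, and most blue points lie left of the orange ones.

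Marker sums of other cells stood beside this response as follows. The 8 astrocyte markers summed to 31.6 to 61.5 CPM in untreated and 42.3 to 87.0 CPM in tau-treated APOE3 libraries. The 8 markers of border-associated macrophages and monocytes summed to 1161 to 2628 CPM untreated and 1178 to 2902 CPM with tau, and the microglial markers to 7326 to 8728 and 7281 to 8634 CPM. Oligodendrocyte markers summed to 183 to 232 CPM (median 199.7) untreated and 229 to 244 CPM (median 236) with tau, nearly without overlap. Mitochondrial transcripts took 0.934 to 1.79% of counts over all libraries. Their part in the result was not tested. Tau library 6 held the lowest value of its group for 21 of the 34 genes, and without it 10 genes were called.

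In APOE3S/S microglia 2 of the 34 genes, Tfeb and Fuca1, fell with tau and none rose, where 3.28% of all genes were called in either direction, 1.14% lower and 2.14% higher. The median log2 fold change of the 34 was -0.14, against -0.01 over all genes, and 29 lay below 0. Tfeb held 66.4 and 66.4 CPM (SAN titles) and 71.2 and 85.9 CPM (second title series) untreated, and 46.3, 61.6 and 44.5 CPM and 54.8, 54.8 and 58.7 CPM with tau. All tau libraries were below all untreated ones, which held for this gene alone of the 34 and for 1.15% of all genes, and the log2 fold change was -0.44 ± 0.10 (adjusted p = 0.0291). Fuca1 held 246 and 255 CPM and 289 and 320 CPM untreated, and 198, 227 and 185 CPM and 229, 233 and 249 CPM with tau. Within each title series its tau values were the lower ones, at -0.33 ± 0.09 (adjusted p = 0.0474). Both calls were lost in some fits that left out 1 library. None of the 34 genes was called without untreated library 1 or without tau library 2, 4 or 6. Tfeb was also lost without untreated library 4, and Fuca1 was lost in 8 of 10 such fits. No share of all genes is given for these fits, so the loss of calls is not shown to be particular to the lysosomal genes. DESeq2 called 8 genes and the fit without a title series term none, with no share over all genes given for either. Tfeb and Fuca1 were both called in the second title series alone, and neither was called under SAN titles alone.

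The other genes set out above were not called in APOE3S/S cells. Atp6v0d2 held 556 and 317 CPM (SAN titles) and 509 and 379 CPM (second title series) untreated, and 217, 202 and 196 CPM and 311, 352 and 399 CPM with tau. Its groups were apart under SAN titles and overlapped in the second title series, with a log2 fold change of -0.68 ± 0.21 (adjusted p = 0.0680). Lipa held 1618 and 1201 CPM and 1281 and 982 CPM untreated, and 1021, 1015 and 916 CPM and 972, 1068 and 1020 CPM with tau. Untreated library 4 lay within the tau values, and the log2 fold change was -0.32 ± 0.09 (adjusted p = 0.0550). Hexa had -0.41 ± 0.12 (adjusted p = 0.0574) and Gusb -0.18 ± 0.07 (adjusted p = 0.129).

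Of the membrane proteins in APOE3S/S cells, Cd68 held 983 and 938 CPM (SAN titles) and 742 and 965 CPM (second title series) untreated, and 728, 828 and 663 CPM and 726, 755 and 765 CPM with tau. Its groups were apart under SAN titles and overlapped in the second title series, at -0.28 ± 0.11 (adjusted p = 0.142). Cd63 held 1006 and 911 CPM and 1269 and 1654 CPM untreated, and 748, 959 and 739 CPM and 1027, 1045 and 1153 CPM with tau. Here the order was the reverse of that of Cd68, with overlap under SAN titles and none in the second title series, at -0.34 ± 0.13 (adjusted p = 0.139). Lamp1 held 2970 and 2849 CPM and 2786 and 3458 CPM untreated, and 2647, 2745 and 2638 CPM and 3140, 3066 and 2891 CPM with tau. The groups were apart under SAN titles alone, and the fold change was the smallest of these 3, at -0.08 ± 0.08 (adjusted p = 0.612).

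Grn, Npc2, Tfe3 and Mitf showed small differences with tau in APOE3S/S cells, and the untreated libraries of Grn, Npc2 and Mitf were widely spread. Grn held 2609 and 3360 CPM (SAN titles) and 2600 and 3703 CPM (second title series) untreated, and 2742, 3217 and 2682 CPM and 3306, 3094 and 3108 CPM with tau, at -0.02 ± 0.11. Npc2 held 1267 and 1629 CPM and 1258 and 2003 CPM untreated, and 1487, 1812 and 1571 CPM and 1586, 1597 and 1549 CPM with tau, at 0.06 ± 0.13. For both genes all tau values but 1 of Npc2 lay between the lowest and the highest untreated value of their own title series. Tfe3 held 148 and 156 CPM and 153 and 145 CPM untreated, and 160, 151 and 155 CPM and 167, 156 and 151 CPM with tau, at 0.06 ± 0.07. Mitf held 88.5 and 73.6 CPM and 94.8 and 55.2 CPM untreated, and 85.8, 75.6 and 85.6 CPM and 78.4, 82.6 and 84.5 CPM with tau, at 0.08 ± 0.12. The groups overlapped for both factors in each title series. Of the untreated APOE3S/S libraries, library 1 held the highest value for 15 and library 4 for 14 of the 34 genes, and library 2 the lowest for 17. Tau library 6 held the lowest value of its group for 20. Atp6v0c held 189 and 193 CPM and 215 and 205 CPM untreated, and 230, 239 and 227 CPM and 220, 233 and 228 CPM with tau. It was the gene whose tau libraries all lay above the untreated ones, as for 1.11% of all genes, at 0.21 ± 0.09 (adjusted p = 0.182).

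The direct test of whether the tau response differed between genotypes called none of the 34 genes and none of the 13905 genes tested (0%) with edgeR. At an unadjusted p under 0.05 it found 0 of the 34 and 284 of all genes, and DESeq2 called 0 of the 34. Given as APOE3S/S minus APOE3, the difference in log2 fold change was 0.26 ± 0.28 for Atp6v0d2, 0.12 ± 0.12 for Lipa, 0.06 ± 0.16 for Hexa, 0.09 ± 0.09 for Gusb, 0.06 ± 0.14 for Cd68 and -0.02 ± 0.14 for Tfeb. Differences over the 34 genes ran from -0.16 to 0.26. Their direction turned between the title series, with a median of 0.13 and 6 of 34 below 0 under SAN titles, and of -0.06 and 24 below 0 in the second title series. For Atp6v0d2 the values were 0.45 ± 0.26 and -0.06 ± 0.19, for Hexa 0.26 ± 0.19 and -0.19 ± 0.19, and for Cd68 0.23 ± 0.18 and -0.12 ± 0.18, and edgeR called 0 of all genes in either series (0%). The larger number of calls in APOE3 cells is therefore not shown to be a difference between the genotypes.

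Nor did the genotypes differ in a called gene at a given treatment. Untreated, edgeR called 0 of the 34 genes (0.00719% of all genes), 3 of the 34 and 1077 of all 13905 genes had an unadjusted p under 0.05, and DESeq2 called 0. Those 3 were Lipa (-0.24 ± 0.09 in APOE3S/S against APOE3), Atp6v0d2 (-0.48 ± 0.21) and Npc2 (0.28 ± 0.12), each with an adjusted p of 0.642. With tau edgeR called 0 (0.0144% of all genes), DESeq2 called 0, and 1 of the 34, Glb1, and 300 of all genes had an unadjusted p under 0.05 (0.16 ± 0.07, adjusted p = 0.9996). With amyloid edgeR called 0 of the 34 and 0 of 13867 genes (0%), DESeq2 called 0, and 7 of the 34 and 1673 of all genes had an unadjusted p under 0.05. The lowest adjusted p of these was 0.388, for Mcoln1 (-0.30 ± 0.10).

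Amyloid was tested in libraries with SAN titles alone, and in both genotypes it shares those untreated controls with the tau comparison. In APOE3 cells edgeR called 0 of the 34 genes and 0 of the 13867 genes tested (0%). DESeq2 called 2, Atp6v0d2 and Gla, and its share over all genes is not given here. In edgeR 8 of the 34, against 1822 of all genes, had an unadjusted p under 0.05: Atp6v0d2, Gla, Atp6v1b2, Atp6v0d1, Cd63, Atp6v1h, Atp6v1a and Lipa. Of these 8, 5 are pump subunits. The median log2 fold change of the 34 was -0.15, against 0.00 over all genes, and 25 lay below 0. Every amyloid library lay below every untreated one for 17 genes, as for 10.9% of all genes, and above for Man2b1 (13.4% of all genes).

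Atp6v0d2 held 442, 385 and 468 CPM with amyloid, against the untreated 808, 754 and 616 CPM given above for SAN titles. All amyloid values were below the untreated ones and above the 239 to 261 CPM of the matching tau libraries, and the log2 fold change was -0.77 ± 0.22 (adjusted p = 0.223). Cd63 held 852, 799 and 785 CPM with amyloid, all below its untreated values, at -0.46 ± 0.17 (adjusted p = 0.294). Lipa held 1474, 1336 and 1449 CPM, below all untreated and above all tau values under SAN titles, at -0.27 ± 0.12 (adjusted p = 0.365). Cd68 held 857, 782 and 817 CPM, also below all untreated values, at -0.25 ± 0.14 (adjusted p = 0.472).

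Tfeb, which fell with tau, held 61.4, 60.9 and 68.0 CPM with amyloid and overlapped with its untreated values, at -0.12 ± 0.16 (adjusted p = 0.744). Tfe3 held 149, 146 and 146 CPM and Mitf 90.8, 75.5 and 81.2 CPM, both within or overlapping the untreated range. The values of Lamp1 were 2874, 2806 and 2800 CPM, below the untreated ones by a small margin (-0.10 ± 0.11, adjusted p = 0.714). Grn held 2946, 2969 and 2902 CPM and Npc2 1374, 1342 and 1285 CPM, both overlapping with untreated libraries.

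In APOE3S/S cells with amyloid edgeR again called 0 of the 34 genes and 0 of all genes (0%), DESeq2 called 0, and 1 of the 34, Atp6v0d2, and 1181 of all genes had an unadjusted p under 0.05. The median log2 fold change was -0.14, against 0.00 over all genes, and 27 lay below 0. Every amyloid library lay below both untreated ones for 11 genes (14.1% of all genes) and above both for Lamp2 (6.97%). Atp6v0d2 held 358, 268 and 216 CPM, against 556 and 317 CPM untreated, and the groups overlapped (-0.57 ± 0.24, adjusted p = 0.582). Lipa held 1240, 1099 and 1121 CPM, which overlapped with its untreated values, and Tfeb 65.5, 54.8 and 46.0 CPM, all below both untreated values of 66.4 CPM. Cd68 held 883, 770 and 619 CPM, below both untreated values, and Cd63 1014, 832 and 685 CPM, overlapping with them. Lamp1 (2955, 2805 and 2455 CPM), Grn (2984, 3087 and 2760 CPM), Npc2 (1618, 1636 and 1400 CPM) and Mitf (69.9, 84.7 and 85.8 CPM) overlapped with untreated libraries as well, as did Tfe3 (130, 139 and 162 CPM). Amyloid library 3 held the lowest value of its group for 27 of the 34 genes, and without it the count of called genes was again 0.

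The difference in amyloid response between genotypes was called for 0 of the 34 genes and 0 of all genes by edgeR (0%) and for 0 of the 34 by DESeq2, and 0 of the 34 and 514 of all genes had an unadjusted p under 0.05. For Atp6v0d2 it was 0.19 ± 0.33, for Man2b1 -0.28 ± 0.15 and for Atp6v1h 0.37 ± 0.21. Astrocyte markers summed to 72.2 to 113 CPM in amyloid-treated APOE3 libraries and 75.0 to 102 CPM in amyloid-treated APOE3S/S libraries, and fibroblast and vessel markers to 5.73 to 65.1 and 1.08 to 3.84 CPM. Untreated APOE3 libraries of both title series held 1.45 to 16.7 CPM of the fibroblast and vessel markers, of which Cldn5 was at 0 in every library. Their part in the values was not tested.

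**Figure D4:**
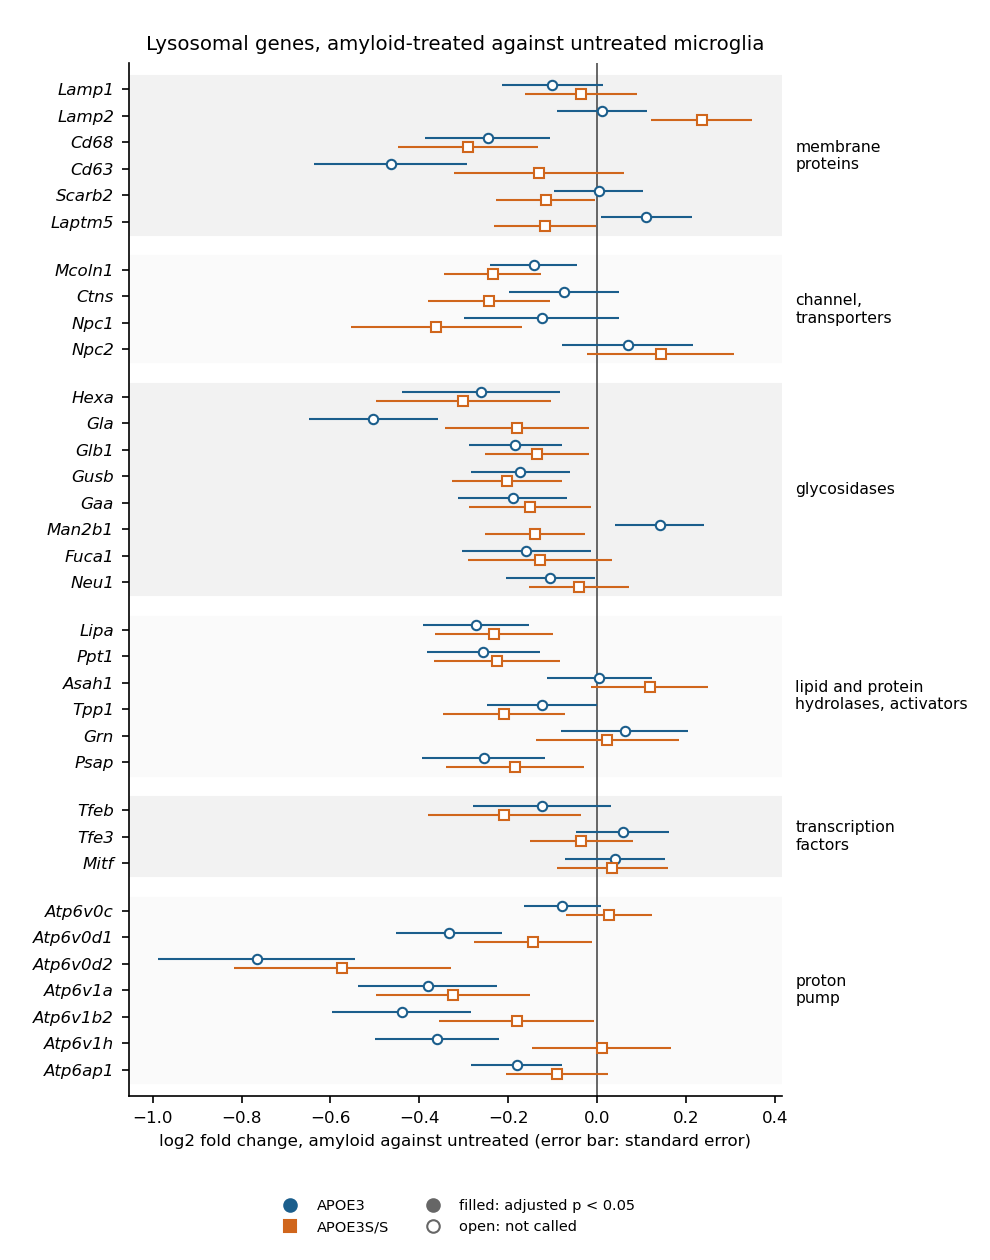
Log2 fold change of each of the 34 genes with amyloid (x axis, error bar: standard error) in APOE3 (blue circles) and APOE3S/S microglia (orange squares), with SAN titles only. All symbols are open because no gene was called, and Atp6v0d2 lies furthest left in both genotypes.

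Tau and amyloid were also set against each other directly within the SAN titles. In APOE3 cells 3 genes were lower with tau than with amyloid (Man2b1, Atp6v0d2 and Scarb2) and 1 was higher (Atp6v0c), where 7.33% of all genes were called, 3.21% lower and 4.13% higher. Man2b1 held 1031, 1067 and 864 CPM with tau and 1359, 1425 and 1415 CPM with amyloid, against 1193, 1303 and 1286 CPM untreated. The tau values lay below and the amyloid values above all untreated ones, and tau against amyloid gave -0.42 ± 0.09 (adjusted p = 0.0202). Scarb2 held 465, 457 and 481 CPM with amyloid, above its 3 tau values, at -0.31 ± 0.09 (adjusted p = 0.0488). The difference of Atp6v0d2 was -0.71 ± 0.19 (adjusted p = 0.0343).

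Atp6v0c held 205, 221 and 205 CPM with tau and 172, 183 and 185 CPM with amyloid, with untreated values of 186, 190 and 190 CPM between them, at 0.31 ± 0.08 (adjusted p = 0.0270). Of the 34 genes, 0 were called when any 1 of the amyloid libraries or tau library 6 was left out. Without tau library 4 the count was 2, and without tau library 5 it was 1. No share of all genes is given for these fits, so the loss of calls is not shown to be particular to the lysosomal genes. In APOE3S/S cells edgeR called 0 of the 34 genes (0.149% of all genes, 0.0708% higher and 0.0778% lower), and 5 of the 34 and 1328 of all 14131 genes had an unadjusted p under 0.05. DESeq2 called 2, Atp6v0c and Lamp2, with no share over all genes given. Atp6v0c stood at 186, 182 and 197 CPM with amyloid and 230, 239 and 227 CPM with tau in that genotype, at 0.30 ± 0.08 (adjusted p = 0.156).

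Lists of other lysosomal genes were read in the same fits, in which 14.8% of all genes were called with tau in APOE3 cells and 3.28% in APOE3S/S cells. With tau in APOE3 cells, 4 of 31 other hydrolases and their helpers rose and 7 fell, with a median log2 fold change of -0.10. The acid phosphatases Acp5 (1.81 ± 0.27, adjusted p = 0.000204) and Acp2 (0.82 ± 0.13, adjusted p = 0.000269) rose. Of 26 other membrane proteins, channels and transporters 6 rose and 4 fell, with a median of 0.00. Laptm4b (-0.63 ± 0.12), a transmembrane protein of late endosomes and lysosomes, and Slc15a4 (-0.29 ± 0.07), a histidine and peptide transporter, fell, and Atp13a2 (0.39 ± 0.08), a polyamine transporter, rose.

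Of 14 other pump subunits 1 rose and 2 fell. Atp6v0a1, an a subunit of V0, fell (-0.85 ± 0.12, adjusted p = 0.000185), as did Atp6v1c1 (-0.45 ± 0.09), while Atp6v0a2, another a subunit, rose (0.34 ± 0.10). Of 26 genes upstream of TFEB, TFE3 and MITF 1 rose and 3 fell, a share near that of all genes. Those that fell were Rragd (-0.86 ± 0.23) and Rraga (-0.28 ± 0.08), GTPases that recruit these factors and mTORC1 to the lysosome, and Ppp3r1 (-0.22 ± 0.06), the regulatory subunit of calcineurin, which dephosphorylates TFEB. Of 19 genes for lysosome positioning and fusion 0 rose and 2 fell, Plekhm1 (-0.66 ± 0.14) and Arl8b (-0.37 ± 0.09). The responses of Plekhm1, Arl8b, Atp6v1c1 and Rragd were less negative in the second title series. The difference was 0.83 ± 0.16 for Plekhm1, 0.61 ± 0.13 for Arl8b and 0.60 ± 0.14 for Atp6v1c1 (edgeR adjusted p = 0.00467, 0.00930 and 0.0140).

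In APOE3S/S cells the same lists gave 1 higher and 3 lower hydrolases, 2 higher and 1 lower membrane proteins, 0 higher and 1 lower pump subunits, and 0 in the remaining lists. Slc15a4 (-0.38 ± 0.08) and Atp6v0a1 (-0.65 ± 0.14) fell and Acp2 (0.65 ± 0.14) rose there as in APOE3 cells. With amyloid edgeR called 0 genes of these lists in either genotype, as it called 0 of all genes, and the median of the other pump subunits was -0.31 in APOE3 and 0.00 in APOE3S/S cells. The response of Rragd to tau was less negative in the second title series in APOE3 cells, by 1.55 ± 0.27 (adjusted p = 0.00235). In that test (5.19% of all genes called) 6 hydrolases, 2 positioning genes, 1 pump subunit, 1 membrane protein and 2 upstream genes were less negative. Going the other way were Tfec (-1.19 ± 0.30, adjusted p = 0.0230), of the upstream list, and Clcn7 (-0.62 ± 0.18, adjusted p = 0.0460), of the membrane list.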

How the data were processed

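Gene counts were deposited in 2 tables of 22 and 11 libraries, with 5 untreated libraries identical in both and used once. Their values are whole numbers with a different total in each library, so they were taken as raw counts. Libraries were made with a QuantSeq 3′ forward kit, per the labels' protocols. The submitters' processing notes name the build GRCm38 (mm10) and DESeq2 1.38.3, and which aligner and counter were run is not given in the sources used here. Of 60976 entries, 6360 without a number (among them all 25 without a name), 81 exact repeats and 108 lower entries of shared symbols were left out. Counts were filtered (filterByExpr), TMM-scaled and tested with edgeR 4.0.16 (R 4.3.3) quasi-likelihood F tests, after a check on simulated counts: 22 untreated and tau libraries with a title series term, 11 untreated and amyloid libraries, or 17 SAN libraries for tau against amyloid. Values written ± are standard errors unless marked SD. The standard errors were worked out from the log2 fold change and the F statistic of its test. Values in every library are given for the called gene with the smallest p in each role (all, where 6 or fewer were called) and for 10 set genes, and gene positions come from GENCODE on GRCm38. Fold changes of the remaining uncalled genes were added after their values were seen. Up to 3 called genes with the smallest p were named from each other list, except where a gene is not reported here. Genes, lists and rules were chosen with earlier results of these data known. Alternatives were DESeq2 1.42.0, other scaling, no filter, single title series, no title series term, a replicate block and leaving out each library.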

Additional observations from a re-analysis of the deposited data

Results flagged for a closer look

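Of 136 sets of 1 gene in 1 group of 4 or 6 libraries, 5 had a library far from the others. The amyloid groups, of 3 libraries each, were not examined. Chance flags about 1 in 20 groups when the libraries form 1 uniform set, whereas each group examined pools both title series. Atp6v0d1 stood at 251 CPM in untreated APOE3 library 1, where the next value was 219 CPM, and Scarb2 at 389.2 CPM in APOE3 tau library 4, next 346.3 CPM. Man2b1 was low in APOE3 tau library 6, at 863.8 CPM against a next value of 1031 CPM. In APOE3S/S, Atp6v1h stood at 117.4 CPM in tau library 2, next 108.2 CPM, and Npc2 at 1812 CPM in tau library 5, next 1597 CPM.

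The response to tau in APOE3 cells differed between the title series for Atp6v0d2 (by 1.177 on the log2 scale), Gla (by 0.772) and Scarb2 (by 0.4896), each less negative in the second title series.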

How the results depend on the processing

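Of 753 recomputed values for 55 named results, 629 kept direction and call, 78 lost a call, 16 gained one and 30 changed sign, all 30 of genes not called. Calls with tau in APOE3 numbered 11 with edgeR, 14 with DESeq2, 9 unfiltered, 8 to 14 with a library left out, 1 in the second title series alone and 5 without a title series term. With tau in APOE3S/S 2 calls became 4 unfiltered, 8 with DESeq2, 1 with SAN titles alone, 0 without the series term and 0 to 4 with a library left out. The call with SAN titles alone was Atp6v0d2 (2.11% of all genes lower), while Tfeb (adjusted p = 0.359) and Fuca1 (adjusted p = 0.447) were not called. The second title series alone called Tfeb and Fuca1 (0.617% of all genes lower). The unfiltered fit kept Tfeb and lost Fuca1. For the difference between title series, DESeq2 called 5 in APOE3 (edgeR 3) and 1 in APOE3S/S (edgeR 0), where the unfiltered fit called 1 and leaving out a library gave 0 to 3. Unfiltered fits called 2 with amyloid in APOE3 (DESeq2 also 2), 1 with amyloid in APOE3S/S, 1 for tau against amyloid in APOE3S/S (DESeq2 2, a library left out 0 to 1), and 1 for the genotypes untreated and with amyloid. Tau against amyloid in APOE3 gave 4 calls, and 0 to 2 with a library left out. The cause was not tested. No share over all genes is given for DESeq2, unfiltered fits, fits without the series term or fits with a library left out. Those counts were therefore not set against all genes.

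Over all 34 genes the sign within 1 title series differed from that over both, with tau, for 2 (SAN titles) and 7 (second series) genes in APOE3 and for 3 and 9 in APOE3S/S, none of them called over both. Among the genes recomputed under every alternative these were Grn (-0.029) and Mitf (0.16) with SAN titles and Tfe3 (-0.040) in the second series, with tau in APOE3, and Grn (0.0063, SAN titles) and Npc2 (-0.11, second series) in APOE3S/S. With a library left out, tau in APOE3 gave -0.010 to 0.059 for Grn, and in APOE3S/S -0.11 to 0.10 for Grn, -0.13 to 0.0089 for Lamp1, -0.055 to 0.18 for Mitf and -0.042 to 0.23 for Npc2. Amyloid in APOE3 gave -0.033 to 0.13 for Grn, -0.040 to 0.10 for Mitf and -0.26 to 0.017 for Tfeb. Amyloid in APOE3S/S gave -0.30 to 0.0075 for Cd63, -0.18 to 0.27 for Grn, -0.10 to 0.046 for Lamp1, -0.046 to 0.13 for Mitf, -0.061 to 0.39 for Npc2 and -0.12 to 0.052 for Tfe3.

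Library titles share numbers across genotypes. Deviations of same-numbered libraries had correlations of -0.12 to 0.17, against -0.20 to 0.20 for other numbers. The deviations were taken from means of 2 or 3 libraries, which ties these correlations to each other. The check therefore cannot show whether libraries were paired. A block for this number again called 0 genes in each comparison of the genotypes.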
